A study of Mus musculus with 6 samples.

Results

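The cytokine genes examined here were Socs3 and 9 further genes of the receptor, kinase and transcription factor chain known as the JAK-STAT pathway: Socs1, Il7r, Il2rg, Il2ra, Jak1, Jak3, Stat3, Stat5a and Stat5b. They were taken by name from the array annotation, and all probe sets annotated to them alone were used. A probe set is a group of short oligonucleotides that reads 1 transcript, and its value is a fluorescence intensity. Of the 10 genes, 9 had at least 1 probe set, giving 23 probe sets (11 in experiment 1 and 12 in experiment 2) among the 18364 probe sets and 8511 genes that the arrays name by 1 symbol. No probe set was annotated to Il2rg, the common gamma chain, so it has no value here. A further probe set annotated to Jak3 together with a neighbouring gene was left out.

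Sorted CD4+CD8+ double-positive thymocytes, the stage at which alpha-beta T cell precursors carry both coreceptors, were compared between mice carrying a Sox13 transgene and wild-type littermates. All mice were female C57BL/6 animals of 6 weeks, and thymocytes of at least 2 mice were pooled for each sort. Each genotype was read on 3 arrays. Experiment 1 used the Mu11K pair (arrays A and B, counted together as 1 replicate), and U74A made up experiment 2. A genotype thus has 1 pooled sample in each of 2 experiments, and any p-value reflects the spread between those experiments and not between mice. The sources used here give neither the promoter that drives the transgene nor the number of transgenic lines.

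Cytokines of the common gamma chain family, such as interleukin-2 and interleukin-7, bind receptors that lack kinase activity of their own. The receptor chains carry Janus kinases (JAK1 on the interleukin-2 and interleukin-7 specific chains, JAK3 on the common gamma chain), which phosphorylate STAT proteins, and these enter the nucleus and switch on target genes. Among the targets are the SOCS genes, whose proteins bind receptors or kinases and shut the signal off. In the thymus, interleukin-7 receptor supports the double-negative progenitors and the mature single-positive cells, whereas double-positive cells are known to carry little of it and much Socs1.

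The promoters of 3 genes are printed because they differ in the element that STAT proteins recognise. Each is the stretch of 250 bases before the RefSeq start site (GRCm38.p6), 5′ to 3′ on the strand of the gene, and capitals mark matches to TTCNNNGAA, which reads the same on both strands. Socs3 (chr11:117969367-117969616, minus strand) had 1 match, whose first base lay 154 bases before the start. Il7r (chr15:9529877-9530126, minus strand) also had 1 match, 142 bases before its start. Socs1 (chr16:10785537-10785786, minus strand), the closest relative of Socs3 among the members, had none in this window.
Socs3: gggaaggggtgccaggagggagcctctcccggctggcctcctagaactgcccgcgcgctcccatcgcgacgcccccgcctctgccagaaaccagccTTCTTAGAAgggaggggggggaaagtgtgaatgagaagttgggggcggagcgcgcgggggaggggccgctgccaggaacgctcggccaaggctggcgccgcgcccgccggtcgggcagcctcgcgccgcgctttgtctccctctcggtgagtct
Il7r: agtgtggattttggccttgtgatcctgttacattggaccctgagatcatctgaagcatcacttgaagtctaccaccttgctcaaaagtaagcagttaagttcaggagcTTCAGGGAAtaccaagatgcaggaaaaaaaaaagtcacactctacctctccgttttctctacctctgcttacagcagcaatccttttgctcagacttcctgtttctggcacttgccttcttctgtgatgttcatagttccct
Socs1: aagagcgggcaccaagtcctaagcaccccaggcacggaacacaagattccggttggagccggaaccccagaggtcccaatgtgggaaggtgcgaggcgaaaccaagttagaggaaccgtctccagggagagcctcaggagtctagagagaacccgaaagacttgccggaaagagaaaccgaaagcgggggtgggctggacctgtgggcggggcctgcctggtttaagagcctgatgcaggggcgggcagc

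The 10 members had 12 such windows, since Stat5a and Stat5b have a pair of starts each, and 2 members held a STAT match. Over all genes with a window, 8.13% held at least 1 match. The letters AACAAT, which Sox proteins recognise, were searched on both strands and found in the windows of 0 members, against 10.9% of all genes. A match in these letters is a description of the sequence and does not show binding, and its absence concerns this window alone.

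Intensities were scaled so that the 2% trimmed mean of each array was 500, and values under a floor of 100 were set to 100 before log2 ratios of transgenic over wild type were taken. The Sox13 probe sets had 5951 in the transgenic sample of experiment 1, where the wild type lay below the floor, and 3832 against 599.6 in experiment 2. Between 46.9% and 57.4% of an array's probe sets lay above the floor. The spread of the log2 ratios was wider in experiment 1 (SD 0.78 over 3237 genes measured in both experiments) than in experiment 2 (SD 0.33). With 1 array per genotype and type, no value within an experiment has a replicate error.

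Of all members, Socs3 had the highest ratio of transgenic over wild type in both experiments. Its protein inhibits signalling through the interleukin-6 receptor chain gp130 and is itself a STAT3 target. In experiment 1 the probe set had an intensity of 1276 in the transgenic sample and 130.5 in the wild type, a 9.78-fold difference (log2 ratio 3.29). In experiment 2 the probe set built on the same reference sequence, U88328, had 597.0 in the transgenic sample and 273.0 in the wild type (2.19-fold, log2 ratio 1.13). The other probe set of experiment 2, of the type that can read several related transcripts, had 442.7 and 325.1 (1.36-fold, log2 ratio 0.45). All 3 probe sets were higher in the transgenic sample, and the wild-type value in experiment 1 lay close to the floor. The marker genes of other cell types on the same arrays, given further on, also differed, and their part in the Socs3 difference was not tested.

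Socs1, which encodes a direct inhibitor of JAK kinase activity, was among the brightest members. Its intensity in experiment 1 was 3554 in the transgenic and 2172 in the wild-type sample (1.64-fold, log2 ratio 0.71). In experiment 2 it was 4092 in the transgenic and 4120 in the wild-type sample (log2 ratio -0.01), so the samples of that experiment were nearly level.

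The receptor genes lay at or near the floor in these cells. Il7r, which encodes the interleukin-7 receptor alpha chain, had 8.88 in the transgenic and 5.25 in the wild-type sample of experiment 1, both below the floor. In experiment 2 it had 102.6 in the transgenic sample, just above the floor, and 68.4 in the wild type, which gives at least a 1.03-fold difference. Il2ra, which encodes the interleukin-2 receptor alpha chain (CD25), was below the floor on every array. Its 3 probe sets read 31.6, -31.5 and 36.6 in the transgenic samples, against 26.8, 21.7 and 19.3 in the wild type, on Mu11K A, Mu11K B and U74A in that order. At this signal no difference in either receptor gene was detectable, and whether the transcripts were absent cannot be read from these values.

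**Figure D1:**
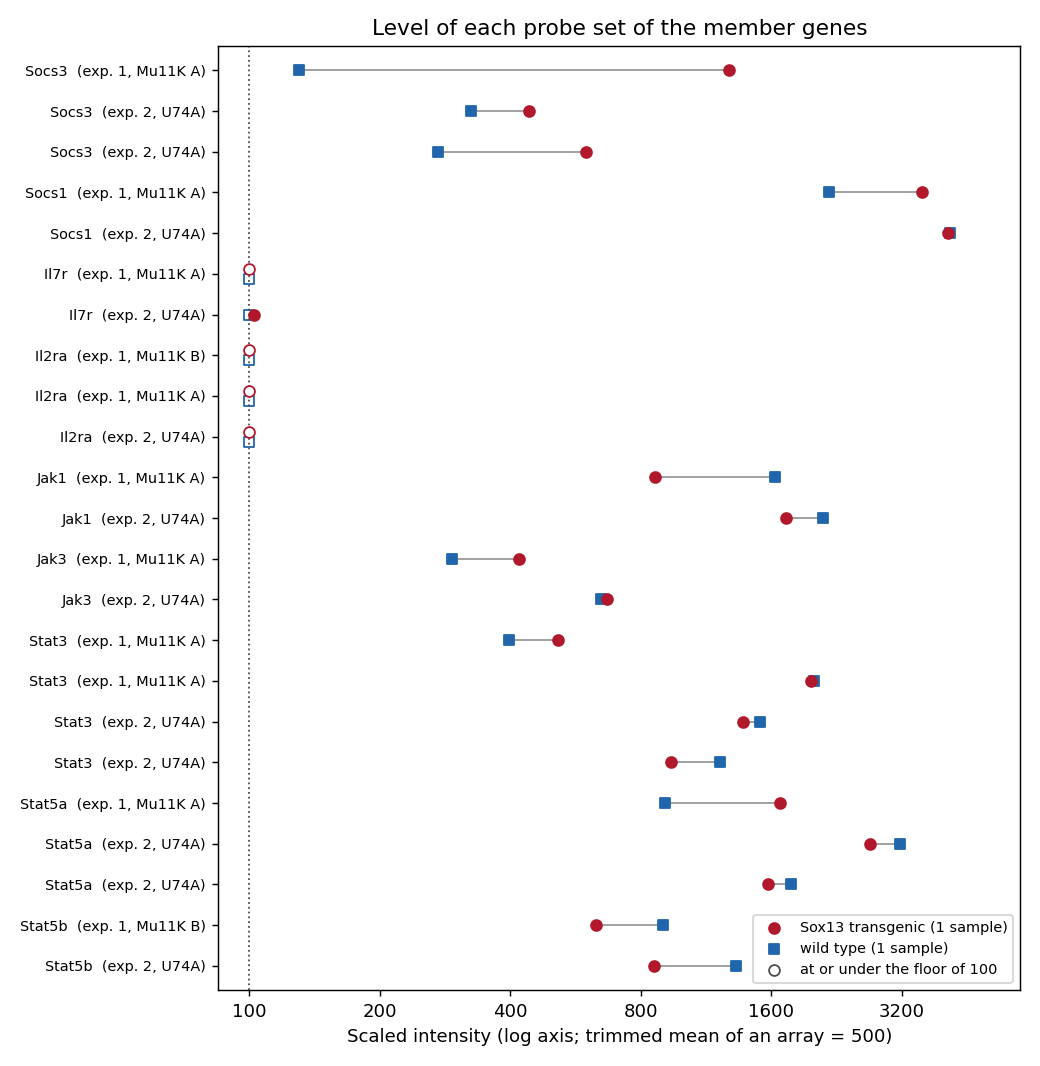
Scaled intensity (log axis, trimmed mean of an array at 500) of each of the 23 probe sets of the member genes, with the transgenic sample as a circle and the wild-type sample as a square; each point is 1 pooled sample, and open symbols at the dotted line are values at or under the floor of 100. The Socs3 line of experiment 1 is the longest, with 1276 in the transgenic and 130.5 in the wild-type sample, and the Il2ra symbols all lie at the floor.

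The kinase genes Jak1 and Jak3 had ratios of opposite sign. Jak1, whose kinase serves the interleukin-2, interleukin-7 and interferon receptors, had 861.7 in the transgenic and 1633 in the wild-type sample of experiment 1 (log2 ratio -0.92). In experiment 2 it had 1725 in the transgenic and 2100 in the wild-type sample (log2 ratio -0.28). The transgenic value of Jak1 was the lower in both experiments. Jak3, whose kinase binds the common gamma chain, had 418.3 in the transgenic and 293.3 in the wild-type sample of experiment 1 (log2 ratio 0.51), and 670.1 and 646.8 in experiment 2 (log2 ratio 0.05).

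Of the transcription factor genes, Stat5b had the most even log2 ratios. STAT5A and STAT5B are close relatives that carry the interleukin-2 and interleukin-7 signal, and the annotation places their genes next to each other on chromosome 11, with 8574 bases between the promoter windows. Stat5b had 631.1 in the transgenic and 900.6 in the wild-type sample of experiment 1 (log2 ratio -0.51). In experiment 2 it had 855.8 in the transgenic and 1329 in the wild-type sample (log2 ratio -0.63), a lower ratio than that of all but 2.49% of the 5377 genes measured there. Its neighbour Stat5a had 1675 in the transgenic and 907.8 in the wild-type sample of experiment 1 (log2 ratio 0.88). In experiment 2 both Stat5a probe sets were lower in the transgenic sample, at 2698 against 3163 and 1574 against 1779 (mean log2 ratio -0.20). The Stat5a difference therefore had opposite signs in the experiments, while that of Stat5b had the same sign. Whether the neighbouring genes differed from each other was not tested.

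Stat3, which carries the interleukin-6 family signal, was read by a pair of probe sets in each experiment. In experiment 1 they had 516.8 and 1969 in the transgenic sample, against 397.2 and 2004 in the wild type. In experiment 2 they had 1377 and 939.5 in the transgenic sample, against 1504 and 1216 in the wild type. The mean log2 ratios were 0.18 and -0.25, and the probe sets of experiment 1 disagreed in sign, at 0.38 and -0.03.

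Whether a gene's mean log2 ratio over the 2 experiments differed from 0 was tested with limma, a linear model with a variance shared across genes, over all 3237 genes measured in both. Of the 7 members in the test, 0 passed at an adjusted p of 0.05, where 0.154% of all genes passed as higher and 0% as lower. At an unadjusted p under 0.05 the only member was Socs3, where 2.5% of all genes were higher and 3.92% lower at that level. Socs3 had a mean log2 ratio of 2.04 ± 0.48 (limma SE, n = 2 experiments, 95% interval 0.99 to 3.08) and ranked 12 of 3237 genes by p (unadjusted p = 9.9e-04, adjusted p = 0.267, limma). It was higher in 2 of 2 experiments. Its adjusted p was 2.19e-05 with arrays scaled to equal medians and 0.0122 after quantile normalization, against 0.13 to 0.876 in the other 7 alternatives.

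The intervals of the other 6 members all included 0. For Jak1 the mean log2 ratio was -0.60 with a 95% limma interval of -1.36 to 0.15, and for Stat5b it was -0.57 with -1.30 to 0.16, both at an adjusted p of 0.803. Socs1 (0.35), Stat5a (0.34) and Jak3 (0.28) had positive means, and Stat3 was at -0.04, with adjusted limma p-values from 0.89 to 0.988. Of the 7 tested members, 4 had the same sign in both experiments, namely Socs3 and Jak3 as higher and Jak1 and Stat5b as lower, against 54.3% of all tested genes. The interval of Jak1 reaches a log2 ratio of -1.36 and that of Stat5a reaches 1.14, so the test does not show that the genotypes were alike in these genes.

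**Figure D2:**
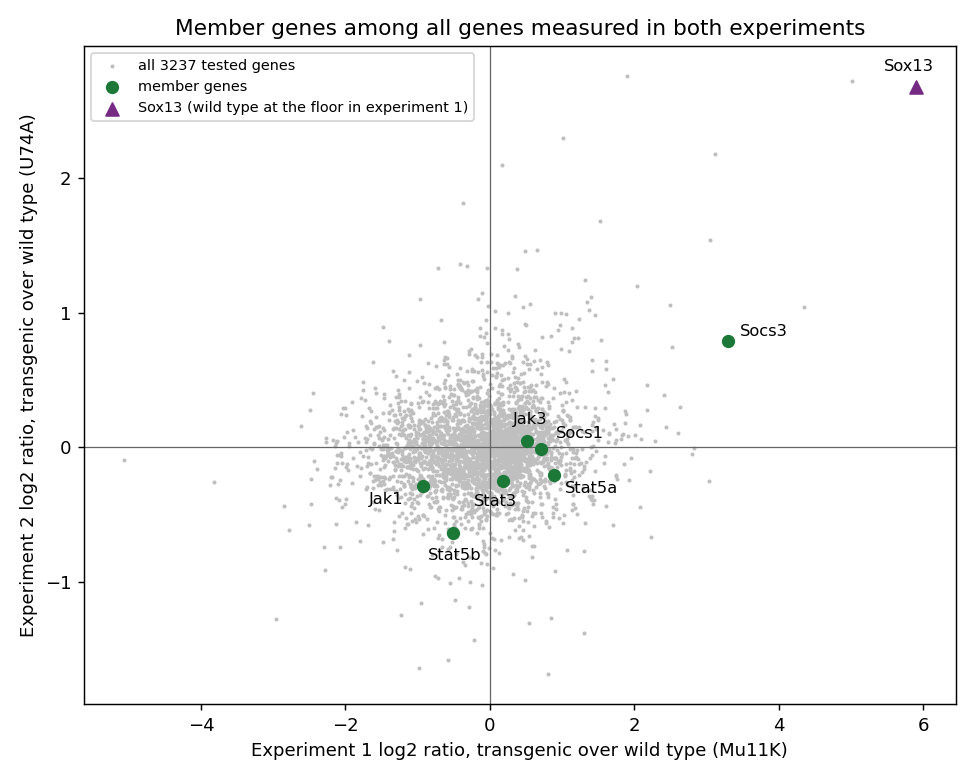
Log2 ratio of transgenic over wild type in experiment 1 (x axis) and experiment 2 (y axis) for the 3237 genes measured in both (grey), the 7 tested members (green circles) and Sox13 (triangle); each point is 1 gene. Socs3 lies at 3.29 and 0.79, outside the grey cloud to the right, and the other 6 members lie within it.

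Counted by size within an experiment, the members gave 1 difference of 2-fold or more. In experiment 1, 1 of the 7 members above the floor, Socs3, was higher by that measure, where 5.25% of 3927 genes were, and 0 members were lower, where 11.7% of genes were. In experiment 2, 0 of 8 members passed 2-fold in either direction, where 0.855% of 5377 genes were higher and 0.446% lower. The mean of the 2 Socs3 probe sets in experiment 2, a log2 ratio of 0.79 or 1.73-fold, ranked 95 from the top. The call rests on averaging in the family probe set: with the brightest probe set alone, or without family probe sets, Socs3 had a log2 ratio of 1.13 (2.19-fold) and passed 2-fold in experiment 2. In experiment 1 Socs3 ranked 4 from the top of 3927 genes.

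**Figure D3:**
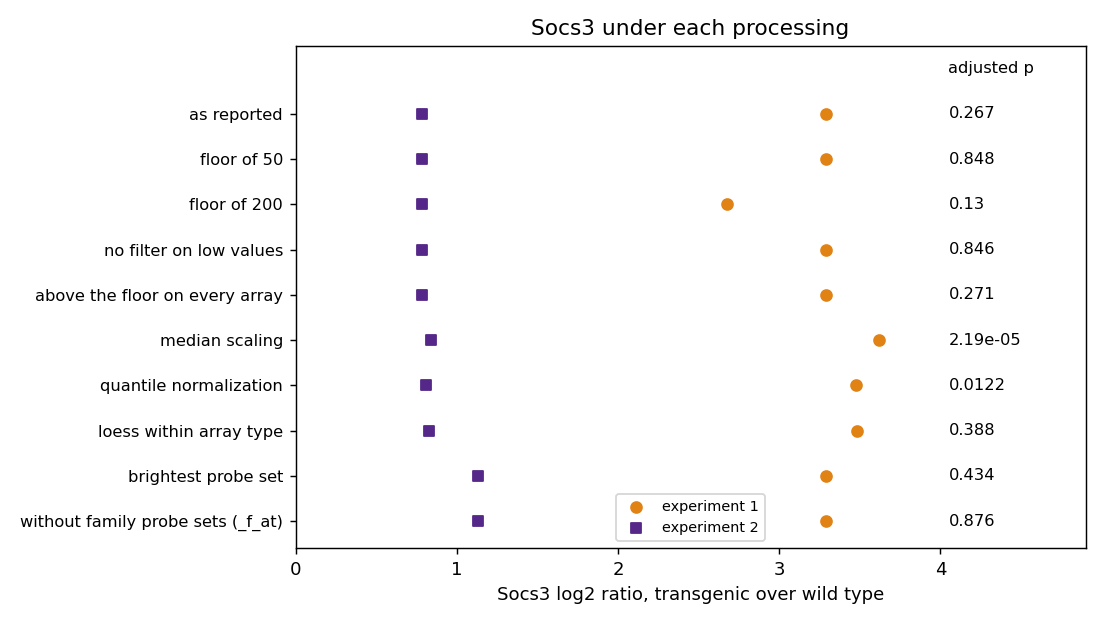
Socs3 log2 ratio of transgenic over wild type in experiment 1 (circles) and experiment 2 (squares), with the adjusted limma p of the mean at the right, as reported and under 9 other ways of processing. The ratio stayed between 2.67 and 3.62 in experiment 1 and between 0.79 and 1.13 in experiment 2, while the adjusted p ran from 2.19e-05 to 0.876.

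The genes whose pair of log2 ratios lay nearest to that of Socs3, by Euclidean distance over the 2 experiments, were BC147527 (distance 0.77), the beta-globin gene Hbb-b2 (0.80), the Notch receptor gene Notch1 (0.82), the granzyme gene Gzma (0.85) and the kinase gene Gsk3a (0.91). Notch1 had 3957 and 3747 in the transgenic sample of experiment 1, against 715.8 and 542.7 in the wild type, and the brighter of its probe sets in experiment 2 was level at 2299 against 2302. Gzma had 8604 in the transgenic and 1535 in the wild-type sample of experiment 1 and 1262 against 605.2 in experiment 2. Gsk3a was level in experiment 2, at 14075 in the transgenic and 14101 in the wild-type sample, so its nearness to Socs3 rests on experiment 1. BC147527 and Gsk3a lay below the floor in the wild type of experiment 1, and Hbb-b2 in that of experiment 2, so part of their ratios are lower bounds. Of these 5 genes, Hbb-b2 passed the test (adjusted p = 0.0399, limma). Its probe set in experiment 1 was of the type that can read several related transcripts. That probe set had 901.6 in the transgenic and 109.7 in the wild-type sample, the latter close to the floor.

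The rest of the pathway was taken from 6 lists of ligands, receptors, kinases, inhibitors and target genes, 93 genes in all, of which 79 were on the arrays and 32 were tested. Of the 32, 0 passed the limma test in either direction, where 0.154% of all genes passed as higher and 0% as lower. At an unadjusted limma p under 0.05 there was 1, Jak2, as lower, where 2.5% of all genes were higher and 3.92% lower. The median of the mean log2 ratios was -0.05 over the 32 genes, against -0.04 over all tested genes. For the counts by list below, 773 of all 3237 tested genes were higher in both experiments and 984 were lower in both.

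Cytokine ligand genes were almost all below the floor. Of 16 on the arrays, 2 were above it in experiment 1 and 2 in experiment 2, and Il2, Il4, Il6, Il7, Il15 and Ifng were below it on every array. The ligand gene Csf3 was the only one tested, at log2 ratios of -0.90 and 0.06.

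Of the other cytokine receptor genes, 9 were tested, with 4 higher and 2 lower in both experiments and a median mean log2 ratio of 0.15. The higher ones were Ifnar2, a type I interferon receptor chain (0.45 in experiment 1 and 0.64 in experiment 2), Ifngr1, an interferon-gamma receptor chain (0.36 and 0.44), Il10rb (0.39 and 0.35) and Il12rb1 (1.11 and 0.20). Ifnar1, the partner chain of Ifnar2, was lower, with 413.6 in the transgenic and 554.0 in the wild-type sample of experiment 1 and 1064 against 1407 in experiment 2. The interferon receptor chains thus had ratios of both signs, and none of these genes passed in limma, where the adjusted p was at least 0.796.

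The 3 other JAK and STAT genes in the test were all lower in the transgenic sample in both experiments. Jak2, whose kinase serves the interferon-gamma and interleukin-12 receptors among others, had its brightest probe set at 163.0 in the transgenic and 387.3 in the wild-type sample of experiment 1. In experiment 2 it had 331.0 in the transgenic and 530.8 in the wild-type sample (log2 ratio -0.68, adjusted p = 0.657, limma). The transgenic value lay below the floor in 2 of its 3 informative probe sets of experiment 1, so the mean log2 ratio there, -1.34, is a bound. Stat4 had log2 ratios of -0.63 and -0.14, and Stat6 of -0.18 and -0.07.

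Among other inhibitors, 1 was higher and 4 were lower in both experiments of the 7 tested, with a median mean log2 ratio of -0.23. Cish, a SOCS family gene and STAT5 target, was near the floor, with 173.8 in the transgenic and 190.2 in the wild-type sample of experiment 1 and 142.9 against 151.9 in experiment 2. The phosphatase genes went both ways. Ptpn2 and Ptprc were lower in both, Ptpn2 at -0.10 and -0.36 and Ptprc at -0.95 and -0.08. Ptpn6 was the gene higher in both (0.17 and 0.04), and Ptpn1 changed sign (0.69 and -0.26). Pias3, an inhibitor of STAT3, lay below the floor in the transgenic samples of both experiments, where the wild type was at 153.7 in experiment 1. Socs2 was below the floor on every array. The SOCS family genes in the test thus had mean log2 ratios of 2.04 (Socs3), 0.35 (Socs1) and -0.11 (Cish), and whether these differed from each other was not tested.

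Known targets of STAT3 showed no common direction. Of the 10 tested, 1 was higher and 3 were lower in both experiments, and the median mean log2 ratio was 0.05. Junb and Myc had log2 ratios of 1.17 and at least 1.29 in experiment 1 but of -0.17 and -0.30 in experiment 2. Bcl6, a transcriptional repressor, was lower in both (-0.83 and -0.29), and the kinase gene Pim1 was close to level (0.09 and 0.07). Of 6 tested STAT5 targets, 2 were higher and 1 lower in both, and the median was 0.19. The kinase gene Pim2 had log2 ratios of at least 0.98 in experiment 1, with the wild type below the floor, and of -0.13 in experiment 2. The survival genes Bcl2l1 and Bcl2 had 0.82 and -0.01, and 0.37 and 0.16, in experiments 1 and 2.

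**Figure D4:**
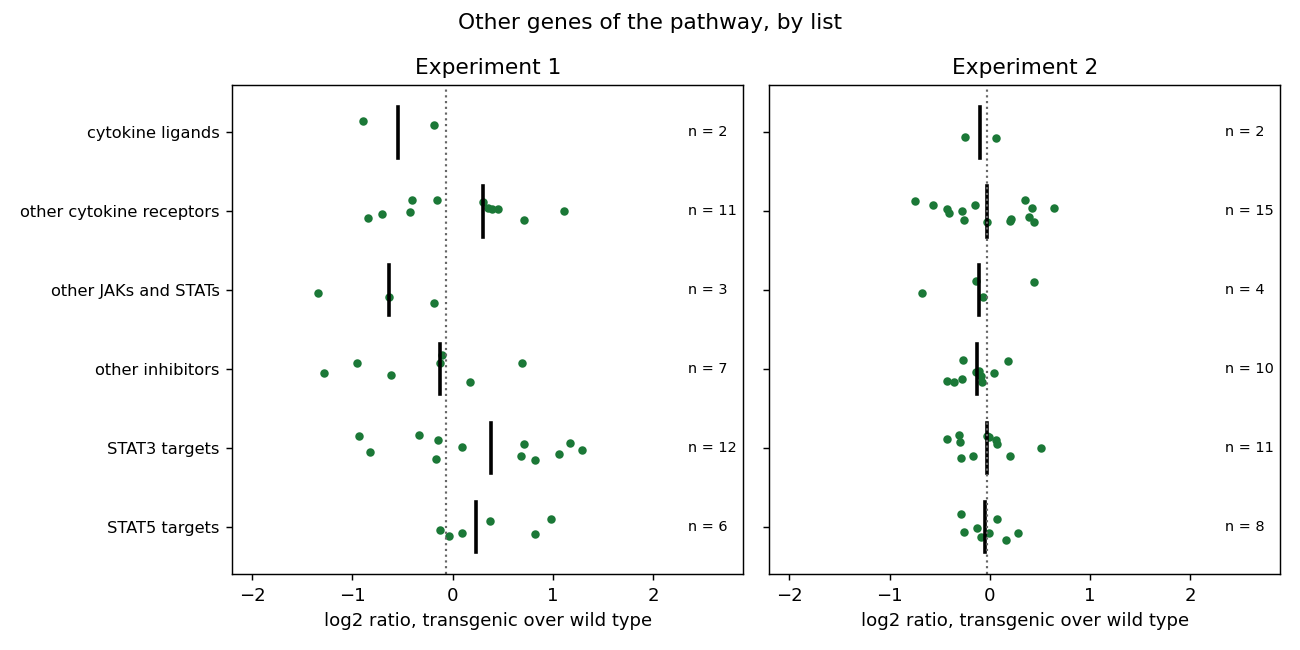
Log2 ratio of transgenic over wild type for the genes of the 6 other pathway lists above the floor on at least 1 array, in experiment 1 (left) and experiment 2 (right); each point is 1 gene, black bars are list medians, the dotted line is the median of all genes and n is the number of points. The points spread more widely in experiment 1, where the STAT3 targets have a median of 0.39, than in experiment 2, where their median is -0.03; the lists of ligands, of other JAKs and STATs and of other inhibitors have medians below that of all genes in both.

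Because Socs3 and Il7r are also expressed by cells outside the double-positive stage, marker genes were read on the same arrays. In sorted bulk RNA, a smaller number of cells of a type and less RNA per cell cannot be told apart. The double-positive markers were high in both genotypes, Cd4 at 7854 in the transgenic and 7876 in the wild-type sample of experiment 1 and 5040 against 6496 in experiment 2, and Cd8a at 15638 against 16859 and 15638 against 17759. Their summed level was 8067, 49728 and 104829 in the transgenic samples on Mu11K A, Mu11K B and U74A, against 13268, 56510 and 110940 in the wild type. Sums here and below take only values above the floor, separately in each genotype, so a value just under it adds nothing. Among all 3237 tested genes, 984 were lower and 773 higher in both experiments, which is the background for the counts here and below. Of the 8 tested double-positive markers, 6 were lower and 0 higher in both experiments, with adjusted limma p-values of 0.774 or more. The lowest log2 ratios were those of Rag2 (-2.02 in experiment 1 and 0.08 in experiment 2) and Cd1d1 (-1.12 and -0.05).

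Mature single-positive markers gave no even picture. Their summed level was 8392 on Mu11K A and 11661 on U74A in the transgenic samples, against 6535 and 11917 in the wild type. Of 8 such genes on the arrays, S1pr1 and Cd44 were below the floor on every array, and Ccr7 was at 189.7 in the transgenic sample of experiment 1 and below the floor elsewhere. Of 4 tested, 2 were higher and 1 was lower in both, with Itgb7 at 1.18 and 0.15 and Emb at -0.99 and -0.53.

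Double-negative progenitor markers summed to 13388, 7606 and 12071 in the transgenic samples on Mu11K A, Mu11K B and U74A, against 5451, 2274 and 10797 in the wild type, and 1 of 5 tested, Dtx1, passed as higher. Much of these sums was Cd3e, which was also high in the wild type and is not particular to progenitors. It had 6210 in the transgenic and 4633 in the wild-type sample on Mu11K A, and 6900 against 7124 on U74A. Notch1 and Notch3 were also higher by mean log2 ratio, while Gata2 was lower in both experiments (-0.03 and -0.13). The defining progenitor genes Kit and Cd34 were under 200 in both genotypes. Gamma-delta T cell markers summed to 2871, 18964 and 9802 in the transgenic samples, against 1905, 8294 and 8657 in the wild type. Only 4 of the 9 listed genes had a probe set, and the receptor gene Trdc had none. Of these 4, 3 were higher in both, led by Gzma and by the kinase gene Blk, with adjusted limma p-values of 0.181 or more. Blk lay below the floor in the wild type of experiment 2, so its ratio there is a bound. A Blk probe set of experiment 1 also did, at 236.4 in the transgenic and 74.4 in the wild-type sample, so that ratio is a bound too. Sox4 and Id3 were bright in the wild type too, at 4641 and 1651 in experiment 1, so these 4 genes do not single out gamma-delta cells.

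B cell markers summed to 8648, 25396 and 18934 in the transgenic samples on Mu11K A, Mu11K B and U74A, against 5345, 15262 and 16370 in the wild type. Of 7 tested, 5 were higher in both experiments, and Cd22 was below the floor on every array. Much of the Mu11K B and U74A sums was Ighm, also bright in the wild type, so these sums do not single out B cells. Its brightest probe sets had 13180 in the transgenic and 9859 in the wild-type sample on Mu11K B, and 10560 against 10340 on U74A. Cd79b (0.58 and -0.23) and Ms4a1 (-0.14 and at least 0.83) changed sign between experiments. The antigen presentation genes among the B cell markers, which other presenting cells also express, were all higher in both experiments by gene mean. H2-Aa had log2 ratios of 1.34 and 1.08 and Cd74 of 1.23 and 0.95. The probe sets of H2-Eb1 in experiment 1 disagreed, at 1756 in the transgenic and 680.8 in the wild-type sample, and at 785.7 against 932.1. Myeloid markers summed to 2545, 1104 and 1911 in the transgenic samples, against 2641, 1282 and 962.1 in the wild type, so they were higher on U74A alone. Their 6 tested genes were higher in both experiments in 2 cases, among them Ctss (1.32 and 1.24), and Itgam, Fcgr3 and S100a9 were below the floor throughout. Of 7 natural killer cell markers on the arrays, all but Gzma were below the floor on every array.

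Erythroid markers summed to 436.3, 3606 and 2501 in the transgenic samples, against 625.6, 1159 and 1328 in the wild type, and the list went both ways. Of 5 tested, Hbb-b2 and Hba-a1, which encode globins, passed as higher, and 2 were lower in both experiments. In experiment 1 the higher probe sets of both globin genes were of the type that can read several related transcripts. A further Hba-a1 probe set of experiment 1 was level, at 299.4 in the transgenic and 305.5 in the wild-type sample. Of the lower genes, Car2, a carbonic anhydrase gene, was below the floor in the transgenic samples, against 197.9 and 310.8 in the wild type of experiments 1 and 2. Ank1, which encodes a red cell ankyrin, had log2 ratios of -0.47 and -0.20, and neither gene passed (adjusted p = 0.431 and 0.89, limma). Thymic stroma and epithelium markers summed to 0, 117.0 and 1068 in the transgenic samples, against 329.8, 117.4 and 1624 in the wild type. Most of the U74A sums was a single Col1a2 probe set, at 750.6 in the transgenic and 1113 in the wild-type sample. Another Col1a2 probe set on that array read 12.5 and 13.9, and those of experiment 1 were all below the floor. The sum of 0 is an effect of the floor. On Mu11K A, Pecam1 had 92.9 in the transgenic and 215.3 in the wild-type sample, and Col1a1 had 31.7 and 114.6. The 2 tested genes, Pecam1 and Col1a1, were lower in both experiments, and neither passed in limma. The keratin genes Krt5, Krt8, Krt14 and Krt18 were below the floor on every array.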

How the data were processed

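RNA of sorted double-positive thymocytes of Sox13 transgenic and wild-type mice was read on Affymetrix arrays. The deposited values are linear intensities, 1 per probe set. Per the series text, the authors made these intensities with Microarray Analysis Software (versions 4 and 5), and the submitters' processing notes name MAS5 for U74A. The sources used here give no scaling target, detection calls or software version per array. Mu11K intensities include negative values and U74A has none.

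From these, control probe sets (55, 55 and 66 on Mu11K A, Mu11K B and U74A) and 21 Mu11K A probe sets without a wild-type value were left out. Arrays were scaled to a 2% trimmed mean of 500, floored at 100 and taken to log2. Within an experiment, a gene's ratio is the mean over its probe sets that exceeded the floor in either genotype. Genes carry the platform annotation, with symbols checked through RefSeq gene IDs of GRCm38.p6, which changed 0 names. The ratios of the 2 experiments were tested against 0 with limma (version 3.58.1, R 4.3.3), two-sided, with Benjamini-Hochberg adjustment over all 3237 genes. The shared variance had 12.1 prior degrees of freedom and outweighs a gene's own spread. The fit was also run on simulated normal ratios with the same change in both experiments, which the real ratios need not have. That run does not bear on the genes called here.

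The members, lists and tests were chosen with earlier results of these data known. Named genes were all members and Sox13, and from each list those past the test, up to 4 with the same sign in both experiments and up to 2 with the largest ratio in 1. The 5 genes nearest to Socs3 were also named, and marker genes with their levels. Socs2 and the ligand genes below the floor were named after their values were seen. A further list of target genes is not reported here. Alternatives were floors of 50 and 200, no filter, a stricter filter, other scalings, the brightest probe set, leaving out an experiment, and, chosen after seeing the data, leaving out family probe sets. Promoter windows are from RefSeq (GRCm38.p6), and all 10 members matched by symbol. Precision is limited by the small number of arrays.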

Additional observations from a re-analysis of the deposited data

How the results depend on the processing

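The Socs3 mean log2 ratio of 2.04 stayed positive in all 9 alternatives, from 1.73 (floor of 200) to 2.23 (median scaling). It passed in limma under median scaling (mean 2.23, adjusted p = 2.19e-05) and quantile normalization (mean 2.14, adjusted p = 0.0122) and in no other. The shared variance had infinite prior degrees of freedom under median scaling and 25.9 under quantile normalization, against 12.1 as reported and 0.397 without a filter. With 1 experiment left out, Socs3 ranged from 0.79 to 3.29, values with no test. Median scaling moved the median log2 ratio of all genes in experiment 1 to 0.27, against -0.07 as reported. Relative to that median, Socs3 lay between 2.69 and 3.44 in experiment 1 and between 0.79 and 1.16 in experiment 2 over all settings. The other 6 tested members passed in none of the 9 alternatives.

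Of 199 further values of members, 4 means changed sign, as did, by less than the spread, the ratio of Stat3 in experiment 1 with the brightest probe set (-0.03) and of Socs1 in experiment 2 under median scaling (0.05). The means were those of Stat3 under median scaling (0.16) and without experiment 2 (0.18), and Socs1 and Stat5a without experiment 1. With 1 experiment left out, Socs1 ranged from -0.0098 to 0.71, Stat3 from -0.25 to 0.18 and Stat5a from -0.20 to 0.88. The count of 5 genes past the test fell to 0 on dropping family probe sets, to 0 at a floor of 50 and to 0 unfiltered. The shared variance had 6.69, 7.88 and 0.397 prior degrees of freedom in these settings, against 12.1 as reported. Dtx1 and Sox13, which passed as reported, have no family probe set. It was 1 with the brightest probe set, 2 with all arrays above the floor, 15 after quantile normalization and 27 under median scaling. Genes higher by 2-fold in experiment 1 numbered 458 under median scaling, and lower ones 221, against 206 and 460 as reported. Lower ones were 291 with a floor of 200 and 287 after loess. In experiment 2 the higher and lower genes were 97 and 81 with a floor of 50, 22 and 8 with a floor of 200, and 28 and 15 with all arrays above the floor, against 46 and 24. Apart from the effect of each filter on the number of genes tested, the cause was not tested. Values near the floor, such as those of Il7r and Il2ra, carry no information on differences.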
